A study of Mus musculus with 6 samples.

Results

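The genes described here mark the cells that wrap blood vessels and the contractile fibres of activated fibroblasts: Acta2, Tagln, Myh11, Cnn1 and Smtn of the smooth muscle contractile apparatus, and Rgs5, Pdgfrb, Cspg4, Abcc9 and Notch3 of pericytes and vascular smooth muscle. They were chosen by gene symbol, with earlier results of these data known. Each of the 10 genes had 1 transcript cluster (the array's unit for a gene) whose annotation gave that symbol alone, so all 10 are among the 65956 clusters tested and none was lost to a filter. Left ventricular RNA was hybridised to Affymetrix Mouse Transcriptome Array 1.0, 1 array per heart. Male wildtype C57/Bl6 mice received 4000000000000 vg of an AAV9 vector into the peritoneum when they were 1 week old, and their hearts were taken 2 weeks afterwards. In the AAV9-Rbm24 group (n = 3 hearts) the vector carried a flag-tagged mouse Rbm24 reading frame behind a CMV promoter, and in the AAV9-GFP group (n = 3 hearts) it carried GFP. Both groups therefore carried virus, and no uninjected heart is part of the comparison. In the study's stained sections the flag-tagged protein lay in a minority of cardiomyocytes. Whether mural cells or fibroblasts took up the vector was not analysed here.

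Vascular smooth muscle cells and pericytes are together called mural cells. Smooth muscle contracts through smooth muscle actin and myosin, and its genes are switched on by serum response factor (SRF) with its partner myocardin at a DNA element called the CArG box. Pericytes sit on capillaries, are recruited by PDGF from endothelial cells through the receptor Pdgfrb, and depend with smooth muscle on Notch3. When fibroblasts turn into myofibroblasts in a scar, they also take up Acta2 and Tagln, which is why these genes are read in fibrosis as well as in vessels.

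Because the CArG box is the element that the contractile genes are known to share, the stretch before the annotated start of Acta2 is shown, with matches to the box in capitals. The box was allowed 1 exception in its core of 6 A or T bases, and it reads the same on both strands. The sequence is RefSeq's (GRCm38.p6, chr19:34255374-34255623, minus strand, the 250 bases before the start).
Acta2: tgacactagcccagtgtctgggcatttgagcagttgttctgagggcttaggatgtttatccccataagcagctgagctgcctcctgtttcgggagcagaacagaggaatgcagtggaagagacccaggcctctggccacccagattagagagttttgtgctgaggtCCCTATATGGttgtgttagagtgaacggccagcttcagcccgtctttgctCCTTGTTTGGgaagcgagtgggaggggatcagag
The boxes begin 84 and 34 bases before the start. RefSeq promoter sequence was at hand for 7 of the 10 genes (not for Tagln, Myh11 and Pdgfrb), and of these 7 only Acta2 held a box in the window from 250 bases before to 50 bases after the start, where 9.98% of all 32851 promoters of that length held one. With no exception allowed, none of the 7 held a box, against 1.63% of all promoters, a share at which 7 genes are too few to tell. Of 25 other smooth muscle genes with promoter sequence, 7 held a box with up to 1 exception and 5 an unbroken one. Of 12 genes of SRF and its wider program, listed partly for this element, 6 and 5 did. A gene counted if any of its promoters held a box, while the shares of all promoters are of single promoters. Gene counts and these shares are therefore not on the same scale.

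None of the 10 genes differed between AAV9-Rbm24 and AAV9-GFP hearts at an adjusted p under 0.05 in limma (linear models with moderated variances, Benjamini-Hochberg adjustment across the whole array), where 0.267% of all clusters did, 0.241% higher and 0.0258% lower. None passed a fold of 1.5 with an unadjusted p under 0.05, the thresholds of the study's methods, where 1.78% of all clusters did, 1.23% higher and 0.552% lower. Of the 10, 1 (Smtn) was lower at an unadjusted p under 0.05 alone and none was higher, while 4.08% of all clusters were higher and 4.33% lower, 8.41% in all. The log2 fold changes ran from -0.30 to 0.14 with a median of -0.04, beside a median of -0.03 for all clusters, and 4 were positive and 6 negative. For 7 of the 10 genes the 95% interval lay within 1.5-fold in both directions, as it did for 77.2% of all clusters. The other 3, Acta2, Myh11 and Smtn, had intervals that reached beyond 1.5-fold lower (that of Smtn only just), and that of Acta2 also ended just above 1.5-fold higher. In RNA of whole ventricle, fewer cells of a type and less RNA per cell cannot be told apart.

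**Figure D1:**
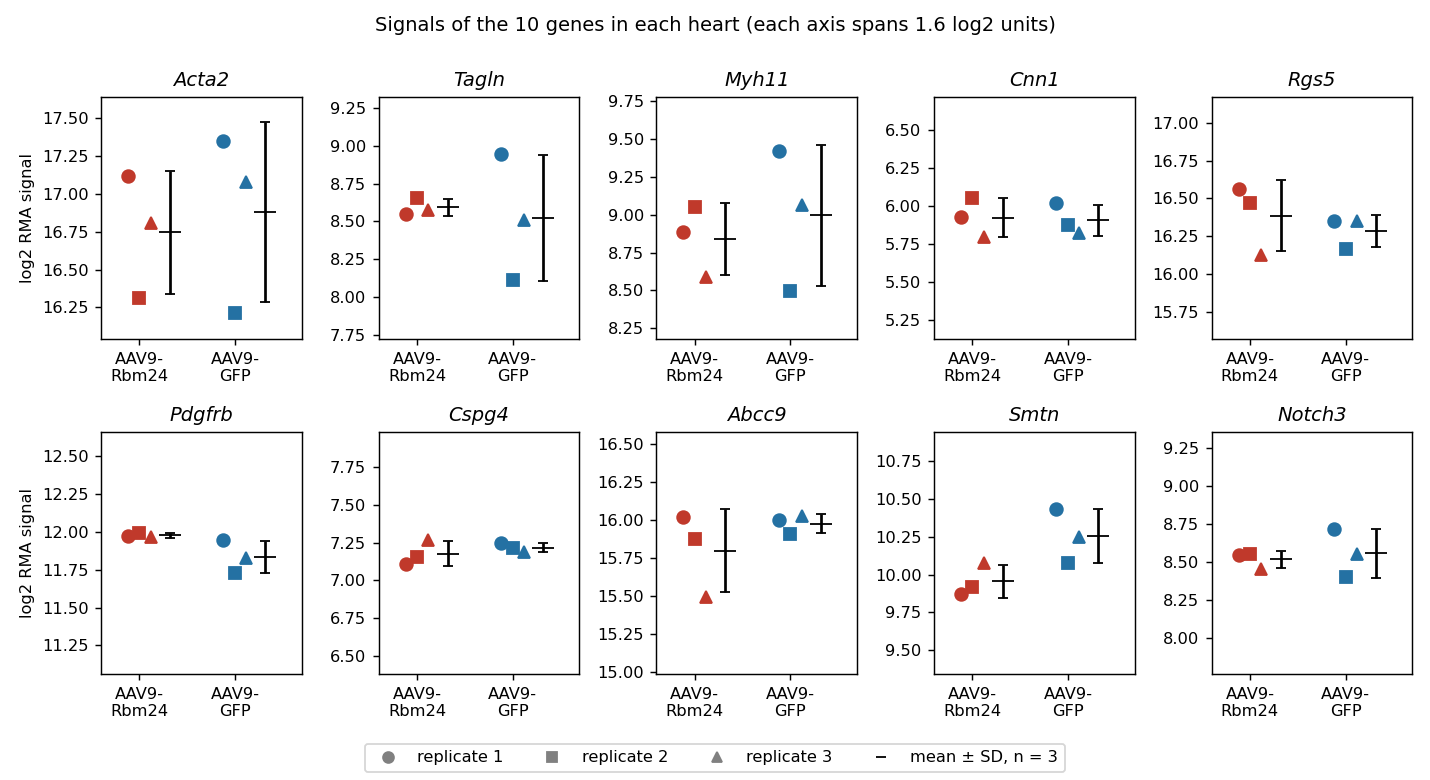
Log2 RMA signal of the 10 genes (1 panel each) in 3 AAV9-Rbm24 hearts (red, left) and 3 AAV9-GFP hearts (blue, right), with the marker shape giving the replicate number and the black bar the mean ± SD. The groups overlap in every panel but those of Pdgfrb and Smtn, and the AAV9-GFP hearts spread widest for Acta2, Tagln and Myh11.

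Acta2 encodes smooth muscle alpha-actin, the actin of vascular smooth muscle and the classical mark of myofibroblasts. Its log2 signal was 17.12, 16.31 and 16.81 in AAV9-Rbm24 replicates 1, 2 and 3, against 17.35, 16.21 and 17.08 in AAV9-GFP replicates 1, 2 and 3. Each group thus had a high, an intermediate and a low heart, and the groups overlapped across nearly their whole range. Between groups the log2 fold change was -0.13 (95% interval -0.85 to 0.59, limma adjusted p = 0.947), or 0.912-fold with an interval of 0.554 to 1.5. The spread of Acta2 within groups (pooled SD 0.508) was wider than that of 98.8% of clusters and its interval was the widest of the 10. With AAV9-GFP replicate 2 left out its log2 fold change was -0.47 (limma adjusted p = 0.595), and without AAV9-GFP replicate 1 or AAV9-Rbm24 replicate 2 it was 0.10 and 0.08 (limma adjusted p = 0.945 and 0.991). The protein of Acta2 is nearly identical in sequence to the other muscle actins. Among these is Actc1, the main actin of cardiomyocytes, whose signal lay at the array's ceiling. Which probes the genes share, if any, is not given in the sources used here.

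Tagln (transgelin, or SM22) is an actin-binding protein of smooth muscle and one of its earliest markers. It had log2 signals of 8.55, 8.65 and 8.58 in AAV9-Rbm24 hearts, against 8.94, 8.11 and 8.51 in AAV9-GFP hearts. The AAV9-Rbm24 hearts lay close together, inside the span of the AAV9-GFP hearts. Its log2 fold change was 0.07 (95% interval -0.38 to 0.52, limma adjusted p = 0.955), and its sign turned to -0.13 once AAV9-GFP replicate 2 was left out (limma adjusted p = 0.813).

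Myh11 encodes the smooth muscle myosin heavy chain, a marker of differentiated smooth muscle that fibroblasts are not known for. Its log2 signals were 8.88, 9.05 and 8.59 in AAV9-Rbm24 hearts, against 9.42, 8.50 and 9.06 in AAV9-GFP hearts. The highest and the lowest heart of all 6 were both AAV9-GFP hearts. The log2 fold change was -0.16 (95% interval -0.70 to 0.39, limma adjusted p = 0.908), or -0.40 without AAV9-GFP replicate 2 (limma adjusted p = 0.533) and 0.06 without AAV9-GFP replicate 1 (limma adjusted p = 0.955).

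Smtn encodes smoothelin, a protein of contractile smooth muscle that binds actin filaments. It had log2 signals of 9.87, 9.92 and 10.08 in AAV9-Rbm24 hearts, against 10.43, 10.08 and 10.25 in AAV9-GFP hearts. Every AAV9-Rbm24 heart was below every AAV9-GFP heart, but by only 0.0012 at the nearest pair, and 14.7% of all clusters had groups that did not overlap in either direction. Between groups the log2 fold change was -0.30 (95% interval -0.59 to -0.01, unadjusted p = 0.043 and limma adjusted p = 0.571), or 0.813-fold. It was negative with each of the 6 arrays left out, between -0.39 and -0.21. The unadjusted p was under 0.05 only without AAV9-Rbm24 replicate 3 or AAV9-GFP replicate 2, and with any of the other 4 arrays left out it lay between 0.0823 and 0.144 in limma. In no alternative was its adjusted p from limma under 0.225.

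Cnn1 encodes calponin, which damps smooth muscle myosin. It had log2 signals of 5.92, 6.05 and 5.79 in AAV9-Rbm24 hearts, against 6.02, 5.88 and 5.82 in AAV9-GFP hearts, with a log2 fold change of 0.02 (95% interval -0.24 to 0.28, limma adjusted p = 0.985). These signals lay little above the array medians of 5.49 to 5.67 and below the brightest of the array's background control probe sets (6.37 to 7.44). The medians of those control sets were lower, at 3.54 to 3.76.

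Rgs5, a regulator of G protein signalling that is among the most used pericyte markers, had log2 signals of 16.56, 16.47 and 16.13 in AAV9-Rbm24 hearts, against 16.35, 16.16 and 16.35 in AAV9-GFP hearts. In AAV9-Rbm24 replicates 1 and 2 the gene was above every AAV9-GFP heart, and in replicate 3 below every one. Its log2 fold change was 0.10 (95% interval -0.22 to 0.42, limma adjusted p = 0.896), and 0.23 without AAV9-Rbm24 replicate 3 (95% interval -0.06 to 0.52, limma adjusted p = 0.772).

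Pdgfrb, the PDGF receptor through which pericytes are recruited and which fibroblasts also carry, had log2 signals of 11.97, 11.99 and 11.96 in AAV9-Rbm24 hearts, against 11.94, 11.73 and 11.83 in AAV9-GFP hearts. Its AAV9-Rbm24 hearts stood higher than its AAV9-GFP hearts without overlap, with a gap of 0.0185 between the nearest pair, the only gene of the 10 in that order. The log2 fold change was 0.14 (95% interval -0.09 to 0.37, limma adjusted p = 0.761), or 1.1-fold. Groups did not overlap for 1 gene higher (Pdgfrb) and 1 lower (Smtn) of the 10, beside 7.01% of all clusters higher and 7.71% lower.

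Cspg4, a surface proteoglycan of pericytes and glial precursors, varied least. Its log2 signals were 7.11, 7.15 and 7.27 in AAV9-Rbm24 hearts, against 7.25, 7.21 and 7.19 in AAV9-GFP hearts. All 6 hearts lay within 0.161 on the log2 scale, and the log2 fold change was -0.04 (95% interval -0.26 to 0.18, limma adjusted p = 0.946).

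Abcc9 encodes the sulfonylurea receptor of the potassium channel that opens when ATP falls, in pericytes and smooth muscle and, as a splice form with another tail, in cardiomyocytes. It had log2 signals of 16.02, 15.88 and 15.49 in AAV9-Rbm24 hearts, against 16.00, 15.91 and 16.03 in AAV9-GFP hearts. AAV9-Rbm24 replicate 3 was lowest by a wide margin, while the other 5 hearts lay close together. Between groups the log2 fold change was -0.18 (95% interval -0.52 to 0.16, limma adjusted p = 0.799), and -0.03 without AAV9-Rbm24 replicate 3 (limma adjusted p = 0.992). Exon and junction signals were not analysed here, so the splice forms were not told apart.

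Notch3, the Notch receptor of mural cells, had log2 signals of 8.55, 8.55 and 8.45 in AAV9-Rbm24 hearts, against 8.72, 8.40 and 8.55 in AAV9-GFP hearts, and the groups overlapped. Its log2 fold change was -0.04 (95% interval -0.30 to 0.22, limma adjusted p = 0.959). Tagln, Abcc9, Smtn and Notch3 overlap another annotated RefSeq gene, and the strand that the probes read is not given in the sources used here.

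**Figure D2:**
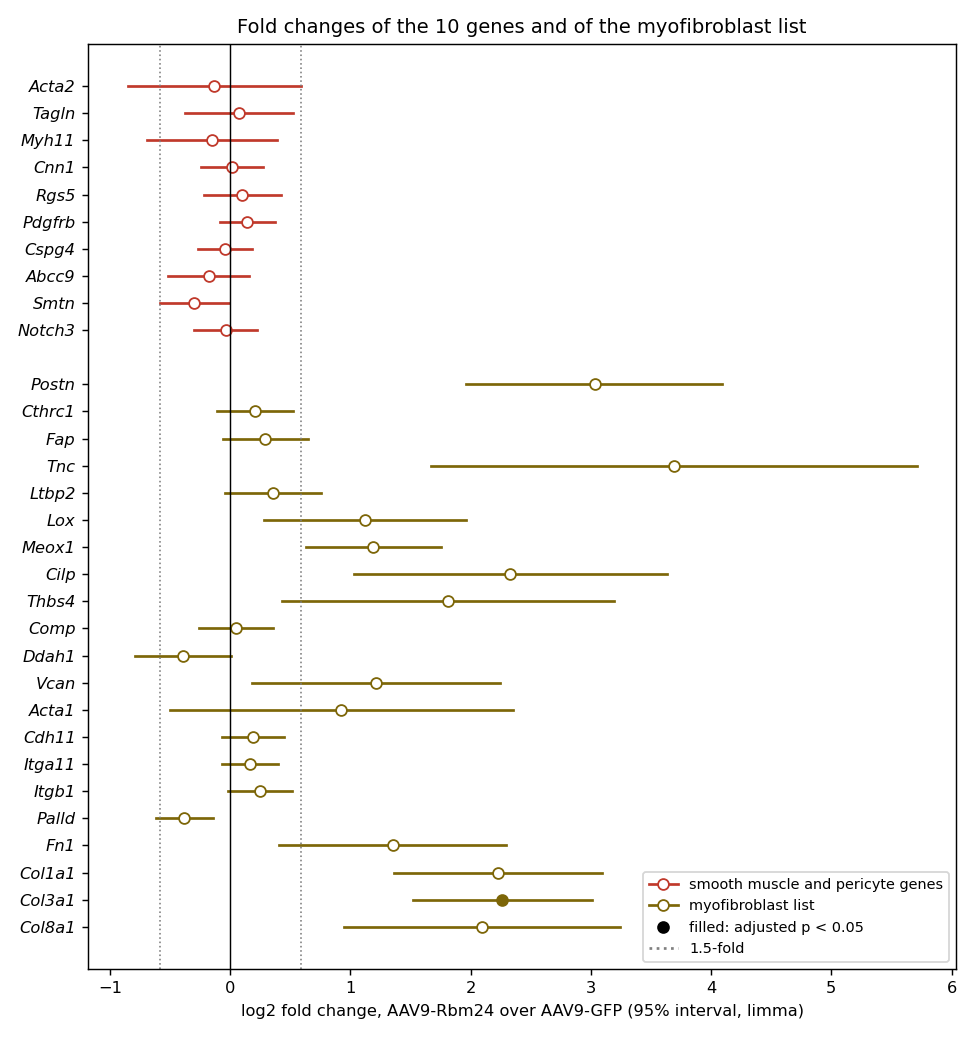
Log2 fold change of AAV9-Rbm24 over AAV9-GFP hearts with its 95% interval from limma (n = 3 hearts each) for the 10 genes (red, top) and for the 21 measured genes of the myofibroblast list (brown, below). Filled points have an adjusted p under 0.05 and dotted lines mark 1.5-fold: the 10 genes lie between -0.30 and 0.14, while Postn lies at 3.03 and Col3a1 at 2.26.

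For each of the 10 genes, the span of the hearts within at least 1 group was wider than the difference between the group means. AAV9-GFP replicate 1 was the highest of the 6 hearts for 5 of the genes, as it was for 13% of all clusters and 20.1% of those whose mean signal was at least 8. AAV9-GFP replicate 2 was the lowest for 5, beside 17% of all clusters and 43.1% of those past that mean. In 6 of the 10 genes (Acta2, Tagln, Myh11, Pdgfrb, Smtn and Notch3) the AAV9-GFP hearts stood in the order replicate 1, replicate 3, replicate 2 from high to low, an order found in 13.7% of all clusters and in 29.6% of those past that mean. The AAV9-GFP replicate 2 array differed from the others as a whole: it had the highest median signal, 5.67, against 5.49 to 5.55, and a first principal component score of -64.3, while the other 5 arrays lay between -9.74 and 41.4. It was also the highest of the 6 arrays for 35.6% of all clusters. AAV9-Rbm24 replicate 3 was the lowest of the 6 hearts for 3 genes (Cnn1, Rgs5 and Abcc9), and the lowest for 22.2% of all clusters. With both of these arrays left out, a check added after the values were seen, 3 of the 10 genes were higher and 7 lower. No adjusted p was then under 0.312 in limma.

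**Figure D3:**
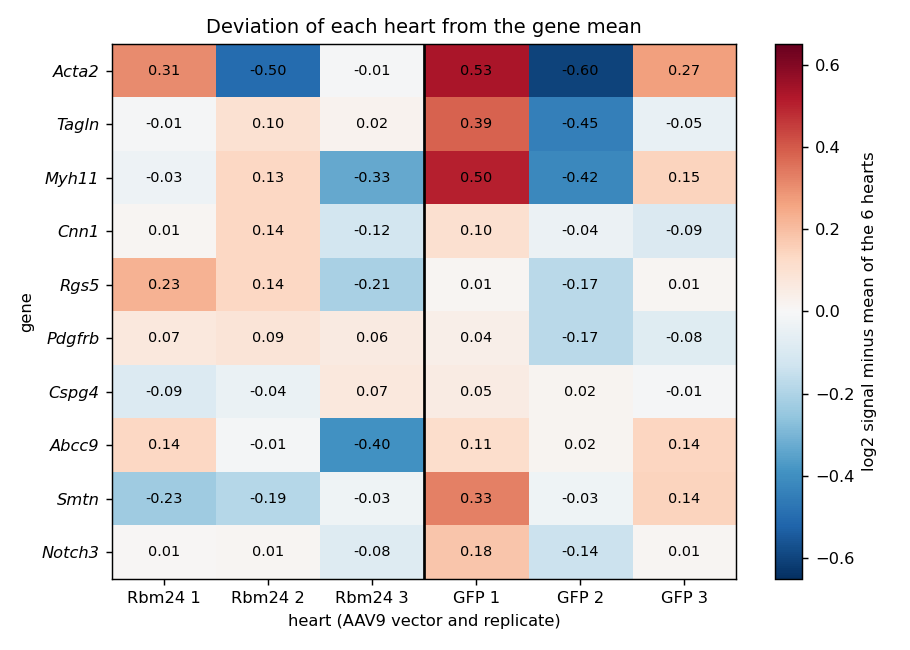
Deviation of each heart (columns, AAV9-Rbm24 left of the line and AAV9-GFP right) from the mean of the 6 hearts, in log2 units, for each of the 10 genes (rows). AAV9-GFP replicate 1 is at or above the mean for all 10 genes and AAV9-GFP replicate 2 is below it for 8.

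Of 28 other measured genes of the smooth muscle contractile apparatus and its cytoskeleton, none passed at an adjusted p under 0.05 in limma, where 0.267% of all clusters did, and 1 was higher and 2 were lower at p under 0.05 before adjustment, beside 8.41% of all clusters in either direction. Their median log2 fold change was 0.04. Pcp4l1, which vascular smooth muscle and cardiac muscle express, had the smallest p (log2 fold change -0.65, limma adjusted p = 0.197). Its log2 signals were 12.47, 12.17 and 12.19 in AAV9-Rbm24 hearts, against 12.83, 12.77 and 13.19 in AAV9-GFP hearts. The groups did not overlap. Cald1 (caldesmon, an actin-binding brake on smooth muscle that fibroblasts also make) had a log2 fold change of 0.40 and Ppp1r12b (a targeting subunit of myosin phosphatase) one of -0.34 (limma adjusted p = 0.341 and 0.466). Myl9, the regulatory light chain of smooth muscle myosin, repeated the wide spread of Acta2, with 10.19, 9.87 and 10.35 in AAV9-Rbm24 hearts, against 10.93, 9.62 and 11.07 in AAV9-GFP hearts (log2 fold change -0.40, limma adjusted p = 0.817). Myl9 was named after its values were seen.

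Of 17 genes of SRF, its cofactors and the wider CArG-driven program, none passed at an adjusted p under 0.05 in limma, but 5 were higher past a fold of 1.5 with an unadjusted p under 0.05, where 1.23% of all clusters were higher. These 5 were the secreted matricellular genes Ccn1 and Ccn2, the immediate early genes Egr1 and Fos, and Fhl1, a LIM protein of stressed muscle. Fos lay at 5.03 to 6.34 in all hearts, below the brightest of the background control probe sets (6.37 to 7.44). The groups of Fhl1 overlapped. Ccn1 had log2 signals of 12.07, 12.38 and 12.25 in AAV9-Rbm24 hearts, against 11.58, 11.32 and 11.30 in AAV9-GFP hearts, and Ccn2 had 8.56, 8.45 and 8.91 in AAV9-Rbm24 hearts, against 7.80, 7.71 and 7.83 in AAV9-GFP hearts. In both genes the groups were apart (log2 fold changes 0.83 and 0.86, limma adjusted p = 0.0607 and 0.0688). Egr1 had a log2 fold change of 0.67 (limma adjusted p = 0.116). The regulators themselves had small differences: Srf had a log2 fold change of -0.14, its cardiac and smooth muscle cofactor Myocd one of -0.23, and the actin-sensing cofactors Mrtfa and Mrtfb ones of 0.03 and 0.09 (limma adjusted p = 0.931, 0.756, 0.970 and 0.889). Srf, Myocd, Mrtfa, Mrtfb, Fos and Fhl1 were named after their values were seen.

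Boxes with an unbroken core stood before several of these genes. Shown are 5 of the boxes, chosen after the values were seen, and the others are not given. Whether the box bears on the fold changes was not tested. Capitals mark the box, with 10 bases on each side, from RefSeq (GRCm38.p6).
Myl9: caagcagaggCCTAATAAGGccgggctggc
Srf: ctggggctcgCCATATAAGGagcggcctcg
Fhl1: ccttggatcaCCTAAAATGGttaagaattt
Fhl2: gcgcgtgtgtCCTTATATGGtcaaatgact
Filip1l: atgccgcgcgCCTTATAAGGctgagcggtg
The log2 fold changes of these genes were -0.40 for Myl9, -0.14 for Srf, 0.81 for Fhl1, -0.52 for Fhl2 and -0.52 for Filip1l, and none passed at an adjusted p under 0.05 (the smallest, that of Filip1l, was 0.31 in limma). The windows lie at chr2:156775293-156775322 for Myl9, chr17:46556225-46556254 for Srf, chrX:56779571-56779600 for Fhl1, chr1:43163973-43164002 for Fhl2 and chr16:57549170-57549199 for Filip1l. A match is a description of these letters and not of binding.

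Of 24 other measured pericyte genes, none passed at an adjusted p under 0.05 in limma, and at p under 0.05 without adjustment 1 was higher and 2 were lower, where 4.08% of all clusters were higher and 4.33% lower. Their median log2 fold change was 0.03. Vtn (vitronectin) had a log2 fold change of -0.29, the peptidase gene Anpep one of 0.43 and the transcription factor gene Tbx2 one of -0.26 (limma adjusted p = 0.448, 0.458 and 0.579). Kcnj8, the pore that pairs with the sulfonylurea receptor of Abcc9 in mural cells, had log2 signals of 9.96, 9.79 and 9.35 in AAV9-Rbm24 hearts, against 9.96, 9.87 and 9.78 in AAV9-GFP hearts, so that AAV9-Rbm24 replicate 3 was lowest as it was for Abcc9 (log2 fold change -0.17, limma adjusted p = 0.83). The related Abcc8 and Kcnj11, receptor and pore of the same channel family, had log2 fold changes of -0.36 and -0.32 (limma adjusted p = 0.458 and 0.719).

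None of 22 other Notch pathway genes, of 6 other PDGF pathway genes or of 16 other RGS genes passed at an adjusted p under 0.05 in limma. Past a fold of 1.5 with an unadjusted p under 0.05, 1 RGS gene was higher and 2 were lower, beside 1.23% and 0.552% of all clusters. At that p alone 3 RGS genes were higher and 3 lower, beside 4.08% and 4.33% of all clusters. No Notch or PDGF gene passed that fold and p. In the Notch pathway, Rbpj, the DNA-binding partner of every Notch receptor, had log2 signals of 10.13, 10.09 and 10.12 in AAV9-Rbm24 hearts, against 9.78, 9.79 and 9.79 in AAV9-GFP hearts (log2 fold change 0.32, limma adjusted p = 0.311). The replicates of Rbpj lay very close together and the groups were apart. The endothelial ligand Dll4 had a log2 fold change of -0.32 and the ligand Dll1 one of -0.21 (limma adjusted p = 0.414 and 0.63). Heyl, a transcription factor that Notch3 induces in mural cells, had one of -0.09 (limma adjusted p = 0.869) and was named after its values were seen. Of the PDGF genes, Pdgfb, the ligand that endothelium offers to pericytes, had a log2 fold change of 0.08 (limma adjusted p = 0.917), named in the same way, while Pdgfrl, Pdgfc and the protease gene Plat had the smallest p of the list and log2 fold changes of 0.32, 0.20 and 0.27 (limma adjusted p = 0.493, 0.633 and 0.71). Of the RGS genes besides Rgs5, Rgs2, which damps signals of vasoconstrictor receptors, had log2 signals of 9.77, 9.34 and 9.74 in AAV9-Rbm24 hearts, against 10.17, 10.41 and 10.94 in AAV9-GFP hearts. The groups did not overlap (log2 fold change -0.89, limma adjusted p = 0.223). Rgs16 and Rgs6 had log2 fold changes of 0.67 and -0.46 (limma adjusted p = 0.276 and 0.299). The largest difference of the list was that of Rgs7, named after its values were seen. It was at -0.98 with the groups apart (limma adjusted p = 0.364).

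The myofibroblast list behaved otherwise than the 10 genes, as a description and with no test between the lists. The list was chosen with earlier results of these data known and holds Postn, which the study reported as upregulated in RNA and protein. By qPCR the study also reported higher expression of many extracellular matrix genes. Its primers include Col1a1, Tnc and fibronectin (Fn1), which are in this list. The study also found more collagen staining at this dose and time. The counts and median of the list are therefore not independent support for a rise. Of its 21 measured genes, 11 were higher past a fold of 1.5 with an unadjusted p under 0.05 (1.23% of all clusters were) and none was lower. Of the 21, 1 rose at an adjusted p under 0.05 in limma, the collagen gene Col3a1 (log2 fold change 2.26, adjusted p = 0.0484), and the median log2 fold change was 1.12, against -0.04 for the 10 genes. AAV9-Rbm24 replicate 3 was the highest of the 6 hearts for 18 of the 21 genes, and without it, a check added after the values were seen, the median was 0.645 and 11 genes were past the same fold and p. The adjusted p of Col3a1 was 0.0433 without that array and 0.0714 to 0.229 with any other array left out in limma. Without that array 4 of the 21 genes passed, Tnc, Col1a1, Col3a1 and Postn (limma adjusted p = 0.0036 to 0.0436). With any other array left out, 0 or 1 passed. Tnc, named after its values were seen, had a log2 fold change of 3.69 with all arrays (limma adjusted p = 0.22). Postn, a matricellular protein of activated fibroblasts, had log2 signals of 13.04, 13.92 and 15.12 in AAV9-Rbm24 hearts, against 11.31, 10.98 and 10.72 in AAV9-GFP hearts (limma adjusted p = 0.06), and Col1a1 had a log2 fold change of 2.23 (limma adjusted p = 0.0812). Postn was highest in AAV9-Rbm24 replicate 3, the heart in which Rgs5, Abcc9 and Kcnj8 were lowest. Pericyte genes were divided in that heart. Of the 24 other pericyte genes, Kcnj8 among them, 7 were lowest and 6 highest there, beside 22.2% and 13.3% of all clusters. Cspg4 was also highest there, while Acta2 and Tagln were near the mean of all 6 hearts (deviations of -0.01 and 0.02). The myofibroblast list was not uniform. Palld, an actin-bundling protein that contractile cells also use, was at -0.38 with the AAV9-Rbm24 hearts below the AAV9-GFP hearts, and Itga11, a collagen-binding integrin, was at 0.16 (limma adjusted p = 0.299 and 0.724), both named after their values were seen.

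**Figure D4:**
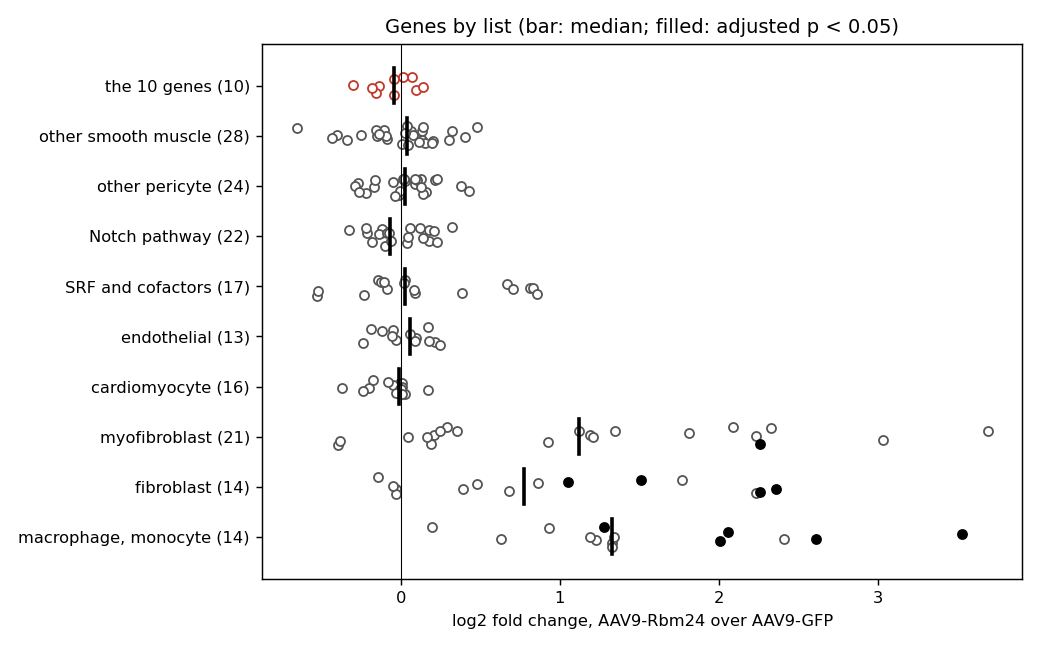
Log2 fold change of AAV9-Rbm24 over AAV9-GFP hearts for each measured gene (points, n = 3 hearts each) in 10 gene lists, with the number of genes in brackets, the median as a bar and filled points at an adjusted p under 0.05 in limma. The median is -0.04 for the 10 genes and 1.12, 0.77 and 1.33 for the myofibroblast, fibroblast and macrophage lists.

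Markers of the other cells of the ventricle were read from the same arrays, in lists likewise chosen with earlier results of these data known. The mean log2 signal over 14 macrophage and monocyte markers was 9.31 to 10.03 in AAV9-Rbm24 hearts, against 7.88 to 8.11 in AAV9-GFP hearts, and 5 of the 14 rose at an adjusted p under 0.05 in limma, where 0.241% of all clusters did (Adgre1, C1qa, C1qb, Lyz2 and Mpeg1, adjusted p = 0.0185 to 0.0479). Over 14 fibroblast markers it was 11.24 to 11.79 in AAV9-Rbm24 hearts, against 10.43 to 10.66 in AAV9-GFP hearts, and 4 of the 14 rose (Lum, Dpt, Col1a2 and Col3a1, limma adjusted p = 0.0217 to 0.0484). The fibroblast list was mixed, with 10 means higher and 4 lower, and Tcf21, Gsn, Wt1 and Thy1, named after their values were seen, had log2 fold changes of -0.03, -0.03, -0.14 and -0.05 (limma adjusted p = 0.979, 0.987, 0.788 and 0.936). With 1 array left out, 0 to 5 macrophage and 0 to 3 fibroblast markers were called, and none of either without any 1 AAV9-GFP array or without AAV9-Rbm24 replicate 2. Over 13 endothelial markers it was 11.27 to 11.56 in AAV9-Rbm24 hearts, against 11.32 to 11.55 in AAV9-GFP hearts, and over the 10 genes themselves 10.91 to 11.06 in AAV9-Rbm24 hearts, against 10.82 to 11.24 in AAV9-GFP hearts. No endothelial marker passed at an adjusted p under 0.05 in limma and none was past an unadjusted p under 0.05. Over 16 cardiomyocyte markers the mean was 15.63 to 15.71 in AAV9-Rbm24 hearts, against 15.69 to 15.77 in AAV9-GFP hearts, and none of the 16 passed at an adjusted p under 0.05 in limma, while 1 (Ryr2, the calcium release channel, at -0.37 with adjusted p = 0.51) was lower at p under 0.05 unadjusted. Groups lay apart for 3 of the 16, all lower, beside 7.71% of all clusters. Myl7, the atrial light chain gene, named as a check of the tissue, lay at 5.12 to 5.92 in all hearts, near the array medians. No Schwann and neuronal, skeletal muscle and epicardial or erythroid marker (6, 10 and 2 measured) passed at an adjusted p under 0.05 in limma. With any 1 array left out, the clusters called higher at the adjusted threshold over the whole array numbered 0 to 90, against 159 with all 6. The part of these other cells in the values of the 10 genes was not tested. The delivered gene, Rbm24, lay at 14.58, 14.74 and 15.12 on the log2 scale in AAV9-Rbm24 hearts, against 13.95, 13.63 and 13.57 in AAV9-GFP hearts, so every heart's label fits its Rbm24 signal (log2 fold change 1.10, limma adjusted p = 0.0607). It was highest in AAV9-Rbm24 replicate 3. By qPCR, another measure, the study reported a much larger rise of Rbm24 mRNA at this dose and time. It also showed the protein by Western blot.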

How the data were processed

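Values as deposited are log2 signals of transcript clusters on each array, made with RMA (Affymetrix Expression Console) per the processing notes of the submitters. RMA corrects background, normalizes between arrays and summarizes probes. For versions, library file and build the entry is: not given in the sources used here. Of 72688 rows, 6732 controls were left out and 65956 clusters were tested, 30638 with 1 gene symbol, 2176 with several (never named) and 33142 with none. Symbols are those of the platform annotation, renewed through RefSeq identifiers and synonyms. A gene was represented by its cluster with the highest mean.

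Groups and replicate numbers came from the sample titles. The labels do not say whether hearts shared a litter. The p-values weigh the difference between groups against the spread of hearts within groups, and they cannot account for a shared litter. The comparison used limma 3.58.1 (R 4.3.3) with lmFit and then eBayes, whose prior had 3.77 degrees of freedom, with no covariate and no filter on dim signals. Tests were two-sided and adjusted over every cluster (Benjamini-Hochberg). Array signals carry no count of molecules, and 3 hearts in each group limit the precision. The procedure was tested on simulated data. The members and the 15 other gene lists were chosen with earlier results of these data known. Named from each list were genes at an adjusted p under 0.05 and up to 3 with the smallest p. The markers of endothelium, cardiomyocytes and the rarer cell types are given as counts, and other genes outside the rule are marked where they appear. Alternatives were minimum mean signals of 6 or 8, clusters with 1 symbol, an intensity trend, robust variances, quantile normalization, median centring, averaging a gene's clusters, the methods' analysis of variance, weights for arrays, a block for the replicate number, and leaving out each array in turn. In a gene list, genes that share a cluster with another symbol, Pdgfra among them, were not used here.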

Additional observations from a re-analysis of the deposited data

How the results depend on the processing

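No member passed the adjusted threshold, nor a fold of 1.5 with an unadjusted p under 0.05, in any of the 18 alternatives run. Of these, 8 leave the fold changes as they are and bear at most on p. Averaging a gene's clusters, 1 of the 8, could change neither, since every member had 1 cluster. In the other 10 alternatives, 91 of 100 values of single genes kept their direction and 9, in 5 genes, turned sign. With array weights Tagln was at -0.0767. Without both AAV9-GFP replicate 2 and AAV9-Rbm24 replicate 3 (added after seeing the data) Tagln was at -0.125 and Acta2 at -0.497. With 1 array left out, Tagln lay between -0.133 and 0.283, Acta2 between -0.467 and 0.101, Cnn1 between -0.0468 and 0.0823, Myh11 between -0.403 and 0.0577 and Notch3 between -0.118 and 0.0423. The cause was not tested. A minimum mean signal of 6 removed Cnn1, whose signal lay below the brightest background controls, and a minimum of 8 also removed Cspg4.

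Over all clusters, the 159 higher and 17 lower at the adjusted threshold were 76 and 7 with the replicate block, 0 and 0 with the methods' analysis of variance (664 and 251 at their own threshold), 2 and 0 without both arrays named above, and 0 to 90 higher and 0 to 4 lower with 1 array left out. The lower ones were 36 with a minimum mean signal of 6, 37 among clusters with 1 symbol, 11 after median centring and 63 with array weights. Past a fold of 1.5, the 813 higher and 364 lower were 389 and 153 with a minimum mean signal of 8 and 484 and 135 among clusters with 1 symbol, where fewer clusters were tested, and 407 to 626 were lower with 1 array left out.

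Same-numbered hearts correlated in their deviations from the group means by 0.03, 0.10 and 0.15. For AAV9-Rbm24 replicates 2 and 3 the same-numbered AAV9-GFP heart correlated best. AAV9-Rbm24 replicate 1 correlated about equally with AAV9-GFP replicates 2 and 1 (0.0328 and 0.0267). These values do not settle whether the numbers are pairs, so the replicate block was kept as an alternative only. With the replicate block, Acta2 kept its log2 fold change of -0.13 with a narrower interval (-0.43 to 0.16, limma adjusted p = 0.781), and Smtn had an unadjusted p of 0.055 in limma. It was 0.111 after median centring and 0.0679 in the methods' analysis of variance.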
